A study of Mus musculus with 23 samples.

Results

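The 10 genes described here encode the enzymes that build fatty acids from citrate and then lengthen and desaturate them. They are Acly, Acaca, Fasn and Me1 (palmitate synthesis), Elovl5 and Elovl6 (elongation), and Scd1, Scd2, Fads1 and Fads2 (desaturation). The members were picked by gene name from the textbook pathway, with earlier results of these data known. Their array features were found through the RefSeq transcript that the array files give for each feature, which returned 15 non-control features for 10 of the 20145 genes named on the array. Acaca and Me1 had 3 features each, Acly had 2 and the other members had 1. All 15 features were well above background on all 23 arrays and were tested in every comparison.

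The enzymes were measured in TM4, a line of immortalized Sertoli cells that comes from the mouse testis. The cultures received a plasticizer (MEHP, DINCH, DOS, DOM or BDB, each at 100 μM) or vehicle only, all in 1% DMSO, and RNA was taken after 48 hr. DOS is represented by 3 arrays and every other group by 4, each from a culture of its own, and a further DOS array is not analysed here, since its background had been judged too high. MEHP is mono(2-ethylhexyl) phthalate, the active monoester of a common plasticizer. DINCH is the diisononyl ester of a saturated cyclohexane dicarboxylic acid, DOM is dioctyl maleate, DOS is dioctyl succinate and BDB is butanediol dibenzoate.

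Fatty acid synthesis takes place in the cytosol. Acly (ATP citrate lyase) splits citrate exported from mitochondria into acetyl-CoA, Acaca (acetyl-CoA carboxylase) turns acetyl-CoA into malonyl-CoA, and Fasn (fatty acid synthase) joins these units into palmitate, using NADPH that Me1 (cytosolic malic enzyme) helps to supply. Elovl6 lengthens palmitate to stearate, the stearoyl-CoA desaturases Scd1 and Scd2 make palmitoleate and oleate, and Fads2, Elovl5 and Fads1 act in turn on essential fatty acids to make long polyunsaturated ones. Many of these genes are known targets of the sterol regulatory element binding proteins (SREBPs, encoded by Srebf1 and Srebf2), which also drive the enzymes of cholesterol synthesis. In the testis, Sertoli cells are known for an active lipid metabolism and for making long polyunsaturated fatty acids.

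The reference promoter table held 7 of the 10 members, all except Fads1, Scd1 and Scd2. The 250 bases before the transcription start are printed for Elovl6, Fasn and Acly, the members with a promoter in the table that were called higher with both MEHP and DOM, and for Elovl5, whose levels overlapped in all groups. The sequences are those of RefSeq on GRCm38.p6 and read 5′ to 3′ on the strand of the gene. Capitals mark matches, on either strand, to the E-box CACGTG, the NF-Y box CCAAT or the GC box GGGCGG.
Elovl6 (chr3:129532136-129532385, plus strand): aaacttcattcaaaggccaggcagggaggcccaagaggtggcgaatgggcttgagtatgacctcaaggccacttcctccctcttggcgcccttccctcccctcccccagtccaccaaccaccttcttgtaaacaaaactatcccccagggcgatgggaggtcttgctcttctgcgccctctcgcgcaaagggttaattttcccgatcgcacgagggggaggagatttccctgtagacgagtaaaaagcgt
Fasn (chr11:120824548-120824797, minus strand): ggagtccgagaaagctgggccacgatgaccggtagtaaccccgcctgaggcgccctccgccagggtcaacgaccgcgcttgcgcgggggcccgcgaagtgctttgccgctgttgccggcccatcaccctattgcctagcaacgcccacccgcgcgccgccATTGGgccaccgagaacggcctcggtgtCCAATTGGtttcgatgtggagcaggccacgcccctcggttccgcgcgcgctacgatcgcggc
Acly (chr11:100528001-100528250, minus strand): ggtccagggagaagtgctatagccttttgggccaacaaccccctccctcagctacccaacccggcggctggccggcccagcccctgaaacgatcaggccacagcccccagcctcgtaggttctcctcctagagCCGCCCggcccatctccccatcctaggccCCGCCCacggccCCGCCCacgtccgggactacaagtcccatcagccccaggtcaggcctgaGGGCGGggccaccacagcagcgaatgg
Elovl5 (chr9:77917115-77917364, plus strand): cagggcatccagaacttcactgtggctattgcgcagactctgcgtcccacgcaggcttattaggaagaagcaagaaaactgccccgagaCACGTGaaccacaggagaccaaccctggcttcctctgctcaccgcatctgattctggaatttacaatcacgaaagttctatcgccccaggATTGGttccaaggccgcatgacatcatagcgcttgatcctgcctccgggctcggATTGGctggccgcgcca

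The core of the sterol regulatory element, written TCACNCCAC, matched in none of the members' windows, and 1.05% of the 32851 mouse promoters in the table held it. Fasn held 3 NF-Y boxes, starting at -90, -62 and -59 from the transcription start, of which the last pair overlap on opposite strands. Elovl5 held 2 NF-Y boxes, at -71 and -17, and the E-box at -161, the only E-box among the members. Acly held 4 GC boxes, at -117, -88, -76 and -27, and no NF-Y box. Elovl6 matched none of these motifs. Of the members not printed, Fads2 held 1 GC box, Acaca held no match, and the windows of Me1 (2 promoters in the table) held 3 GC boxes in the one and 1 NF-Y box in the other. The NF-Y box was present in 33.9% of all promoters, the GC box in 32.7% and the E-box in 6.02%, so the matches are a description of these windows only.

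An array has no read depth, and the number of arrays limits the precision. The 75th percentile of the processed signal lay between 204.6 and 350.7 per array, 43.4% to 52.2% of an array's spots passed the scanner software's test of signal well above background, and no spot was saturated. Of 14 Sertoli cell marker genes, 5, among them Gata4, Dhh, Kitl and Inhbb, were well above background on all arrays, while Wt1, Fshr and Cldn11 were not on any array. None of 4 adipocyte markers was well above background on all arrays, and Plin1 and Lep were not on any. Well above background on all arrays were 1 of 5 Leydig cell markers (Cyp17a1) and 1 of 3 macrophage markers (Csf1r). So were 2 of 3 endothelial markers (Kdr and Pecam1), 2 of 4 peritubular myoid markers and 0 of 5 germ cell markers. On no array were 3 Leydig cell, 2 macrophage, 1 endothelial, 1 myoid and 2 germ cell markers. MEHP, DINCH and BDB lay in other slide rows than DMSO, so that for these compounds the row and the treatment cannot be told apart, whereas DOM and DOS shared the rows of DMSO. The 5 comparisons with DMSO share its 4 arrays.

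A level is the log2 signal of a gene's brightest feature relative to the array's 75th percentile, so that a level of 0 is the signal of that percentile, and levels were compared between groups but not between genes. To be called, a gene needed at least 1 feature that changed by more than 1.5-fold with an adjusted p below 0.05 in limma's moderated test. Treatment with MEHP raised 4 of the 10 members (Acly, Fasn, Elovl6 and Scd1) and treatment with DOM raised 5 (the same 4 and Me1). In these main fits, which had no block, no member was called with DINCH, BDB or DOS, and none was called lower with any compound. Some other settings changed this for DINCH. Acaca was called lower with the replicate number, taken from the values as pairing those arrays, or the slide as a block. It was also called lower with all 6 groups in a single fit or when some single arrays were left out. Scd1 was called higher when 1 DMSO array was left out.

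**Figure D1:**
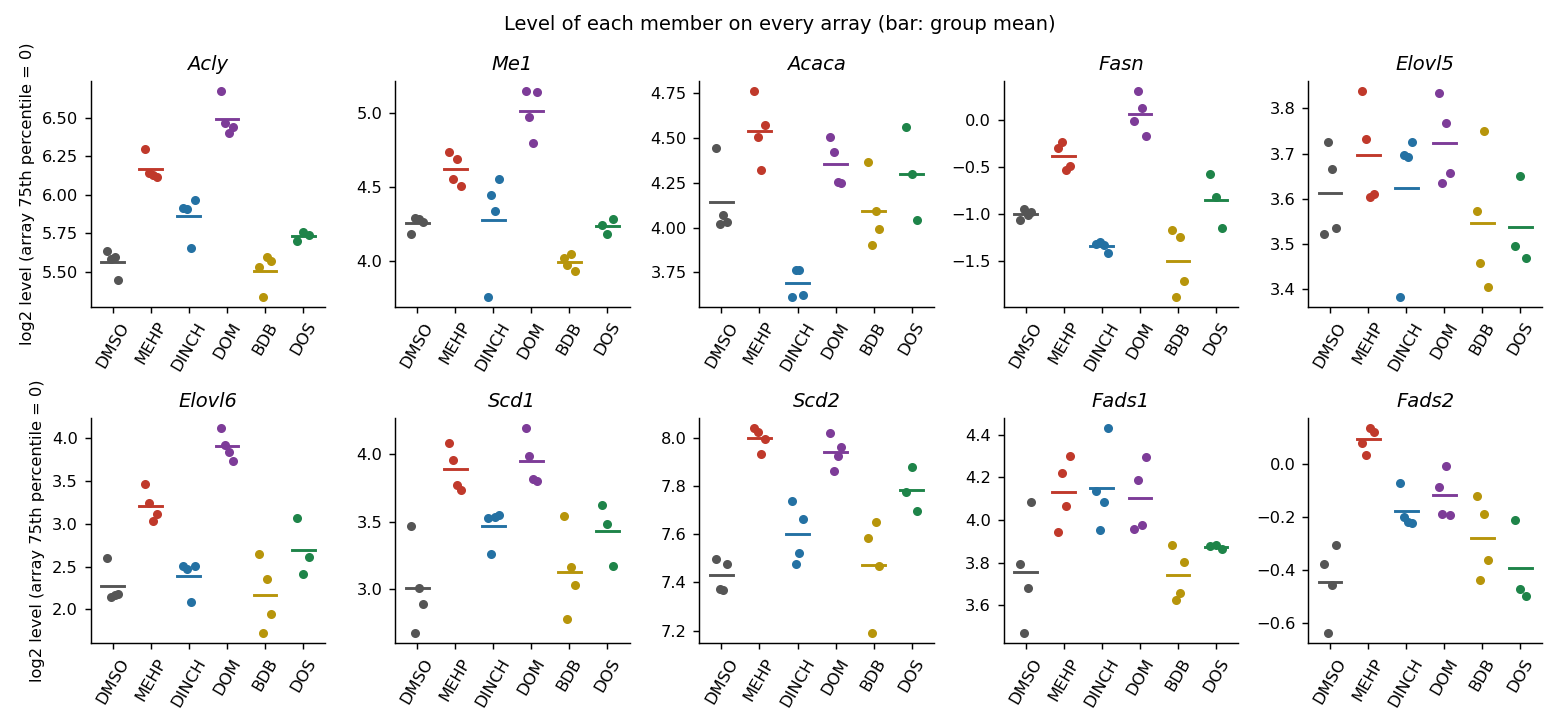
Level of each of the 10 members on each of the 23 arrays (log2 signal relative to the array's 75th percentile, separate vertical axis for each gene), by treatment group. Points are arrays and bars are group means. The DOM arrays lie above all DMSO arrays for Acly, Me1, Fasn, Elovl6, Scd1, Scd2 and Fads2, and the Acaca arrays of DINCH lie below all others. The share of all genes separated in this way is not given.

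For the enzymes of palmitate synthesis, Acly was at 5.63, 5.58, 5.59 and 5.45 on the 4 DMSO arrays. It was at 6.30, 6.14, 6.12 and 6.12 with MEHP and at 6.67, 6.47, 6.40 and 6.44 with DOM. The groups did not overlap, with every DOM array above every MEHP array and every MEHP array above every DMSO array. Acly was 1.52-fold higher with MEHP (log2 change 0.61, SE 0.08, adjusted p = 0.011) and 1.91-fold higher with DOM (0.93, SE 0.10, adjusted p = 0.000381). Its other feature moved by 0.55 with MEHP, which was not called (adjusted p = 0.0541), and by 1.00 with DOM, which was called. With DINCH, Acly was at 5.91, 5.90, 5.66 and 5.97, above all DMSO arrays by a mean of 0.30, which missed the threshold (adjusted p = 0.0991). The changes with BDB (-0.06) and DOS (0.17) also missed it, although the 3 DOS arrays (5.70 to 5.76) lay above all DMSO arrays.

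Fasn was at -1.06, -0.94, -1.004 and -0.97 with DMSO. It was at -0.29, -0.23, -0.53 and -0.49 with MEHP and at -0.0025, 0.31, 0.13 and -0.17 with DOM. As for Acly, these groups were stacked without overlap, DOM highest. The rise was 1.53-fold with MEHP (log2 change 0.61, SE 0.09, adjusted p = 0.0163) and 2.09-fold with DOM (1.06, SE 0.11, adjusted p = 0.000416). With DINCH, Fasn was at -1.31, -1.29, -1.32 and -1.41, and all 4 arrays lay below all DMSO arrays. The difference of -0.34 (SE 0.08) had an adjusted p of 0.0349 but was under 1.5-fold. With BDB, Fasn was at -1.17, -1.87, -1.24 and -1.70, also below all DMSO arrays, with a wider spread (-0.50, SE 0.16, adjusted p = 0.189). The DOS arrays (-0.58, -0.81 and -1.15) overlapped with DMSO.

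Acaca, which makes the committed precursor for Fasn, was not called with any compound in the main fits. It was at 4.44, 4.02, 4.07 and 4.03 with DMSO and at 3.62, 3.76, 3.77 and 3.63 with DINCH. All DINCH arrays lay below all arrays of every other group. The difference from DMSO was -0.45 (SE 0.12, adjusted p = 0.0421), again under 1.5-fold. The replicate numbers were taken, from the values, to pair the DINCH and DMSO arrays. Acaca was called lower with DINCH with the replicate number or the slide as a block, or with all 6 groups in a single fit. So it was without DMSO replicate 2 or DINCH replicate 2. Its other 2 features were lower by more (-0.65 and -0.82), but with overlapping arrays and adjusted p-values of 0.0907 and 0.076. With MEHP, Acaca was at 4.76, 4.51, 4.32 and 4.57, a difference of 0.40 that overlapped with DMSO replicate 1 (adjusted p = 0.166), and with DOM the difference was 0.21 (adjusted p = 0.222).

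Me1 was at 4.18, 4.29, 4.28 and 4.27 with DMSO and at 5.15, 4.97, 4.80 and 5.14 with DOM, a 1.69-fold rise (log2 change 0.76, SE 0.11, adjusted p = 0.00107). All 3 of its features were called with DOM, at 0.62 to 0.76. With MEHP it was at 4.74, 4.56, 4.69 and 4.51. These lay above all DMSO arrays, but the difference of 0.37 missed the threshold (adjusted p = 0.0564). With DINCH the features differed: the brightest was at 3.76, 4.45, 4.34 and 4.56, with no mean difference from DMSO beyond 0.02, and the others at 0.32 and 0.29. With BDB all 4 arrays (3.93 to 4.05) lay below all DMSO arrays, by 0.26 on average (adjusted p = 0.171).

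Of the elongases, Elovl6 had the largest log2 change against DMSO among the 10 members. It was at 2.60, 2.15, 2.17 and 2.18 with DMSO, at 3.46, 3.24, 3.03 and 3.12 with MEHP and at 4.12, 3.92, 3.85 and 3.74 with DOM. The groups again did not overlap. Elovl6 was 1.92-fold higher with MEHP (log2 change 0.94, SE 0.13, adjusted p = 0.0151) and 3.10-fold higher with DOM (1.63, SE 0.14, adjusted p = 0.000208). With DOS it was at 3.07, 2.42 and 2.61, a difference of 0.43 whose unadjusted p was 0.0459 and adjusted p 0.692. The differences with DINCH (0.12) and BDB (-0.11) were within the spread of the arrays. Elovl5, in contrast, was between 3.38 and 3.84 on all 23 arrays, and its differences from DMSO ran from -0.07 to 0.11 with intervals that all included 0.

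Of the desaturases, only Scd1 was called. It was at 3.47, 2.68, 3.01 and 2.89 with DMSO, where replicate 1 was the highest. It was at 4.08, 3.96, 3.77 and 3.73 with MEHP and at 4.19, 3.98, 3.81 and 3.80 with DOM, all above DMSO replicate 1. Scd1 was 1.84-fold higher with MEHP (log2 change 0.88, SE 0.17, adjusted p = 0.0356) and 1.91-fold higher with DOM (0.94, SE 0.17, adjusted p = 0.00384). With DINCH (3.53, 3.26, 3.53 and 3.55) and DOS (3.63, 3.48 and 3.18) the differences of 0.46 and 0.42 had unadjusted p-values of 0.0211 and 0.0641 and did not pass after adjustment (0.113 and 0.741).

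Scd2 and Fads2 passed the adjusted p but stayed under 1.5-fold. Scd2 was between 7.37 and 7.50 with DMSO, between 7.93 and 8.04 with MEHP (0.57, SE 0.07, adjusted p = 0.00875) and between 7.86 and 8.02 with DOM (0.51, SE 0.09, adjusted p = 0.0026). The 3 DOS arrays, at 7.70 to 7.88, also lay above all DMSO arrays (0.35, adjusted p = 0.487). Fads2 was between -0.64 and -0.31 with DMSO and between 0.036 and 0.14 with MEHP (0.54, SE 0.09, adjusted p = 0.0228), between -0.19 and -0.0077 with DOM (0.33, SE 0.10, adjusted p = 0.0396) and between -0.22 and -0.071 with DINCH (0.27, adjusted p = 0.133). Fads1 differed from DMSO by 0.38 with MEHP, 0.39 with DINCH and 0.35 with DOM. In all 3 comparisons its arrays overlapped with DMSO, whose own spread was 3.47 to 4.08, and no adjusted p passed (0.101 to 0.222). Fads1 and Fads2 are next to each other on chromosome 19.

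In order of group means, DOM was highest for Acly, Me1, Fasn, Elovl5, Elovl6 and Scd1, MEHP for Acaca, Scd2 and Fads2, and DINCH for Fads1. DOM and MEHP did not overlap for Acly, Me1, Fasn and Elovl6, and they overlapped for Acaca, Elovl5, Scd1, Scd2 and Fads1. The share of all genes without overlap is not given here, and 18.8% of all genes were called between MEHP and DOM. For Fads2 all MEHP arrays lay above all DOM arrays. BDB was lowest for Acly, Me1, Fasn, Elovl6 and Fads1, and its arrays overlapped with those of DMSO for all members except Me1 and Fasn.

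Across all 10 members, MEHP gave a median log2 change of 0.55, with 10 of 10 above 0 and with medians of 0.48 to 0.61 on the single MEHP arrays. The median over all genes tested was -0.01. The 4 members called higher stand beside 1.13% of all genes called higher with MEHP, and the 0 called lower beside 0.561%. At an unadjusted p below 0.05 there were 9 members, against 18.9% of all genes. The MEHP calls rested on few arrays: without MEHP replicate 1 only Elovl6 was called, without MEHP replicate 2 or without DMSO replicate 3 only Acly, and without DMSO replicate 4 only Elovl6 and Fasn. The call of Scd1 was lost with 7 of the 8 arrays left out in turn, all except DMSO replicate 1. Fasn was not called with the slide as a block (0.58) or with normexp background correction (0.43), both under 1.5-fold. Over these and the other alternatives the log2 changes stayed between 0.43 and 1.05, and the adjusted p-values reached 0.148 for Acly, 0.141 for Elovl6, 0.171 for Fasn and 0.241 for Scd1.

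DOM gave a median of 0.64, with 10 of 10 members above 0 and single array medians of 0.52 to 0.74, against a median of -0.03 over all genes. The 5 members called higher stand beside 9.9% of all genes called higher, and 0 called lower beside 10.6%. There were 8 members at an unadjusted p below 0.05, against 47.3% of all genes. The 5 calls were made under each of the 12 other settings and with each of the 8 arrays left out, with adjusted p-values up to 0.0304.

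DINCH gave a median of 0.14, with 8 of 10 members above 0. None was called by limma in either direction without a block (with the replicate number or the slide as a block, or with all 6 groups in a single fit, Acaca was called lower), where 4.25% of all genes were called higher and 4.02% lower, and 6 members had an unadjusted p below 0.05, against 30.8% of all genes. Those 6 were Acly, Scd1, Fads1 and Fads2, which were higher, and Acaca and Fasn, which were lower. Without DMSO replicate 1, 1 member (Scd1) was called higher, and without DMSO replicate 2 or DINCH replicate 2, 1 member (Acaca) was called lower.

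BDB gave a median of -0.05 with 3 of 10 members above 0, and DOS a median of 0.15 with 8 of 10 above 0. No member was called by limma with either compound, and neither was any other gene (0% of all genes in each direction). With BDB the count over all genes depended on the setting, with 67 higher and 53 lower when all 6 groups shared a fit and 59 and 41 with the slide as a block, but no member was among them. Without BDB replicate 2 the BDB median was 0.016. With BDB, Me1 and Fasn were below 0.05 before adjustment, both lower, against 16.3% of all genes, and with DOS Elovl6 and Scd2, both higher, against 6.34% of all genes.

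**Figure D2:**
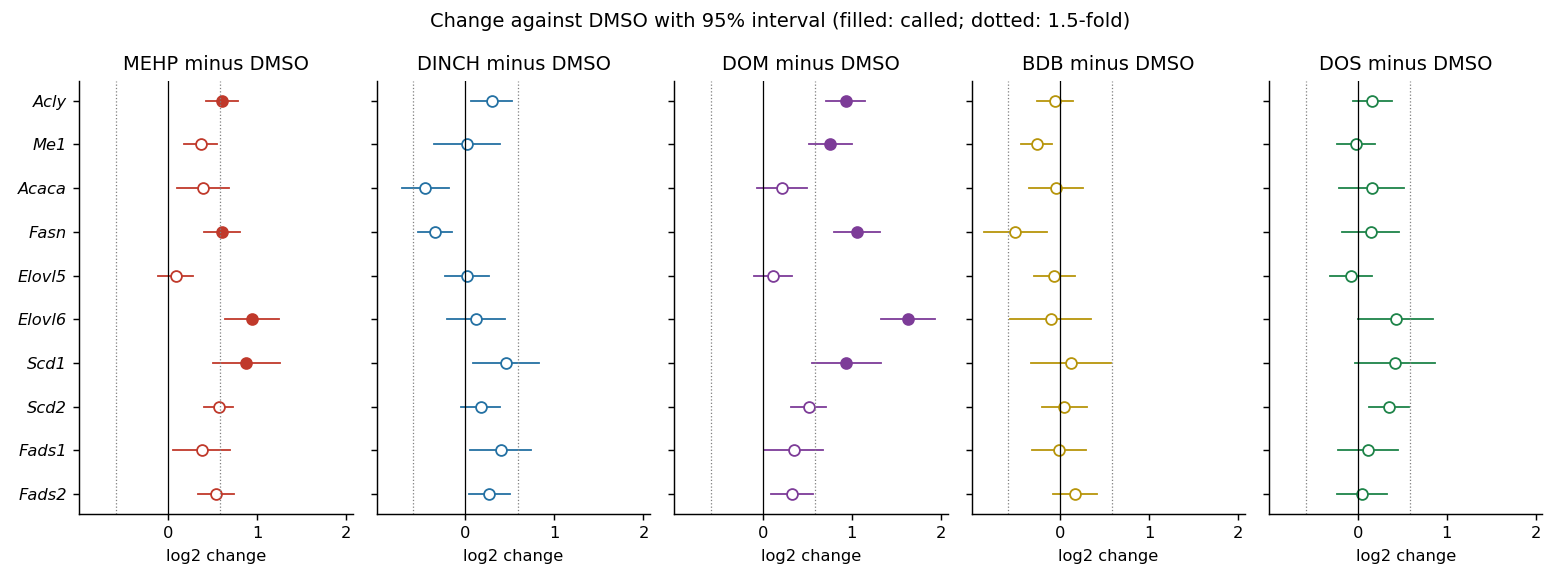
Log2 change of each member against DMSO for the 5 compounds, with 95% confidence intervals. Filled points are called members and dotted lines mark a 1.5-fold change. With DOM the changes of Elovl6 (1.63) and Fasn (1.06) are the largest, and with DINCH Acaca (-0.45) and Fasn (-0.34) lie below 0 while the desaturases lie above it.

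Arrays of all groups lay on each of the 3 slides, except that DOS could be compared with DMSO on 2. Within slides, Elovl6 was higher with DOM by 1.42 to 1.69 and with MEHP by 0.75 to 0.94, Fasn by 0.80 to 1.21 and 0.44 to 0.80, and Acly by 0.81 to 0.99 and 0.54 to 0.67. Scd1 was higher by 0.62 to 0.97 with DOM and by 0.55 to 0.93 with MEHP, and Me1 by 0.51 to 0.88 with DOM. All these differences were above 0 on all 3 slides. This had to be so, since every treated array lay above every DMSO array for these members. Slides 1 and 3 held 1 DMSO array each. Within slides, Acaca was lower with DINCH by -0.83 to -0.28 and Fasn by -0.40 to -0.25. Here every DINCH array lay below every DMSO array, so this direction was fixed too.

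Markers of other cell types and Sertoli markers moved with some treatments. The summed signal of the 14 Sertoli markers, relative to the 75th percentile, was 14.2 to 28.0 on the DMSO arrays and 43.0 to 68.7 with DOM. Inhbb carried this difference, and without it, a choice made after the values were seen, the sum was 3.95 to 4.40 with DMSO and 3.82 to 4.30 with DOM. Without Inhbb it was 4.68 to 5.37 with MEHP, 5.59 to 7.99 with DINCH and 4.45 to 4.85 with BDB, all above DMSO. With DOS it was 4.10 to 4.96, which overlapped with DMSO. Inhbb rose (1.61) and Sox9 and the smooth muscle gene Cnn1 fell (-0.92 and -1.21) with DOM, and Dhh rose with DINCH (1.09). The summed signal of 4 peritubular myoid markers was 30.3 to 38.7 with DMSO, 24.5 to 26.6 with MEHP and 35.9 to 50.9 with DINCH. It was 36.5 to 48.9 with DOM, 32.3 to 42.6 with BDB and 47.6 to 65.7 with DOS. This sum was mostly Acta2, whose level was 4.52 to 5.99 over the 23 arrays, against -1.30 to 1.22 for Cnn1. Des was well above background on 4 arrays and Myh11 on 0. With DOM, Cnn1 fell although the sum did not. The summed signal of 4 adipocyte markers was 0.060 to 0.15 with DMSO, 0.046 to 0.078 with MEHP and 0.041 to 0.22 with DOM. Adipoq was well above background on 3 arrays, Cidec on 1, and Plin1 and Lep on 0, so this sum cannot compare treatments. Whether these markers had a part in the members' changes was not tested, and in cultures fewer cells of a kind and less RNA per cell cannot be told apart.

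All compounds were tested at the same dose and time, so the 10 pairs of compounds were compared directly, in a single fit of the 6 groups with p-values adjusted over all probes and all 10 pairs. There were 27 calls of a member in a pair. MEHP, DINCH and BDB lay in other slide rows than DOM and DOS. In pairs across these sets the row and the compound cannot be told apart. DOM and DOS are both dioctyl esters, and the central acid of DOM has a double bond that is saturated in DOS. They shared the slide rows. With DOM, Elovl6 was higher than with DOS by 1.21 (95% interval 0.80 to 1.61, adjusted p = 0.000138), Fasn by 0.91 (0.59 to 1.23, adjusted p = 0.000235), Me1 by 0.78 (0.50 to 1.06, adjusted p = 0.000289) and Acly by 0.76 (0.57 to 0.95, adjusted p = 4.86e-06). These 4 members were called in a comparison in which 15.6% of all genes were called in either direction. Scd1 was higher by 0.52 (0.15 to 0.89) with an adjusted p of 0.0449 but under 1.5-fold. Acaca (-0.23 to 0.34), Elovl5 (-0.03 to 0.40), Scd2 (-0.04 to 0.36) and Fads1 (-0.05 to 0.51) had intervals that included 0, and Fads2 (0.07 to 0.48) had an adjusted p of 0.052.

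MEHP and DINCH differ in several parts of the structure at once: an aromatic against a saturated ring, a monoester against a diester, and the alcohol. They shared slide rows. With MEHP, Fasn was higher than with DINCH by 0.95 (0.65 to 1.25, adjusted p = 6.89e-05), Acaca by 0.85 (0.58 to 1.11, adjusted p = 6.65e-05) and Elovl6 by 0.82 (0.45 to 1.20, adjusted p = 0.00245). The Acaca difference was called on all 3 of its features. These 3 members stand beside 3.68% of all genes called. Scd2 (0.40), Acly (0.31) and Fads2 (0.27) passed the adjusted p below 1.5-fold, while Fads1 differed by -0.02 (-0.28 to 0.24) and Elovl5 by 0.07 (-0.13 to 0.27).

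Between the compounds that raised members, MEHP and DOM, only Elovl6 was called, lower with MEHP by -0.69 (-1.07 to -0.32, adjusted p = 0.00892), where 18.8% of all genes were called. Acly (-0.32), Me1 (-0.39) and Fasn (-0.45) were also lower with MEHP at adjusted p-values of 0.0093 to 0.0304 but under 1.5-fold. The intervals for Scd1 (-0.40 to 0.28), Scd2 (-0.13 to 0.24) and Fads1 (-0.23 to 0.29) included 0. Between MEHP and DOS no member was called by limma, where 1.58% of all genes were, although all 10 differences were above 0 (0.16 to 0.51), 7 of them had an unadjusted p below 0.05 and 3 (Acly, Fasn and Fads2) an adjusted p below it. For Elovl6 the interval of that difference was 0.11 to 0.92. MEHP lay in other slide rows than DOM and DOS, so in these pairs row and compound cannot be told apart.

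The remaining pairs held most of the other calls with DOM or with BDB. DINCH and DOM differed in 5 members, all lower with DINCH: Elovl6 by -1.51, Fasn by -1.40, Me1 by -0.74, Acaca by -0.66 and Acly by -0.63 (22.8% of all genes called). DOM and BDB differed in 5, led by Elovl6 at 1.74 and Fasn at 1.56 (26.3% of all genes), and MEHP and BDB in 6, led by Fasn at 1.11 and Elovl6 at 1.05 (3.03%). Of these 6, Acaca was called only on a dim feature (0.66, against 0.45 on its brightest). DINCH and BDB differed only on 1 feature of Me1 that is not its brightest (0.63, against 0.28 on the brightest, 10.3% of all genes), DINCH and DOS only in Acaca (-0.61, 7.04%), and BDB and DOS only in Fasn, which was lower with BDB by -0.65 (-0.97 to -0.33, adjusted p = 0.0047, 2.15%). These pairs share arrays with each other. Except for MEHP and DINCH against BDB, their compounds lay in different slide rows, so row and compound cannot be told apart.

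**Figure D3:**
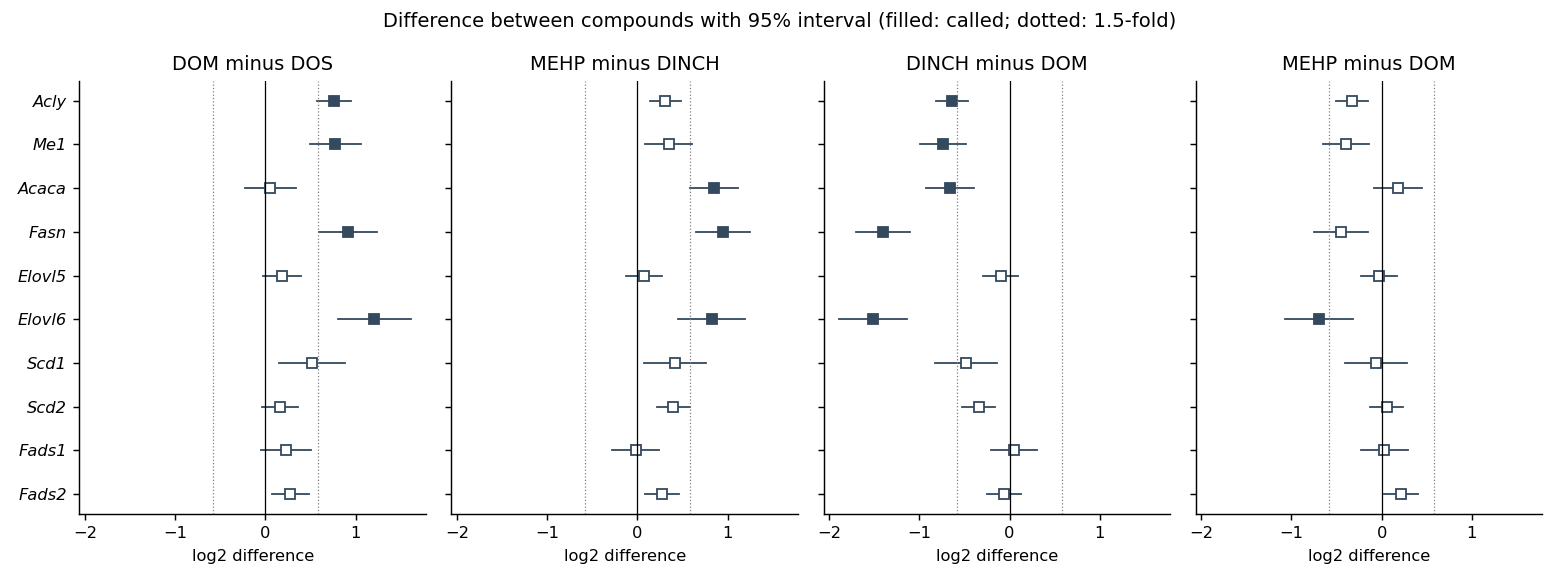
Log2 difference of each member between 4 pairs of compounds, with 95% confidence intervals from the fit of all 6 groups. Filled squares are called members and dotted lines mark a 1.5-fold difference. DOM exceeds DOS most at Elovl6 (1.21), and MEHP exceeds DINCH at Fasn (0.95), Acaca (0.85) and Elovl6 (0.82) but not at Fads1 (-0.02).

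The enzymes that feed fatty acid synthesis with precursors and NADPH moved in part with the members. Of 11 listed genes 10 were tested, and 3 were called higher with MEHP: Slc25a1, the mitochondrial citrate carrier (0.83), Idh1, which makes cytosolic NADPH (0.71), and Aacs, which activates acetoacetate (0.64). With DOM 5 were called higher, among them Pgd of the pentose phosphate pathway (1.39), Aacs (1.16), Idh1 (0.89) and Slc25a1 (0.86). With DINCH, Me3 (0.80), Idh1 (0.73) and Slc25a1 (0.68) were called higher, although no member was, and Me2 was called lower (-0.82). None was called with BDB or DOS.

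Of the transcription factors of the pathway and the proteins that process SREBPs (16 listed, 15 tested), Insig1, which retains SREBPs in the endoplasmic reticulum and is itself a SREBP target, was called higher with MEHP (0.82, adjusted p = 0.0105), DINCH (0.64, adjusted p = 0.0199) and DOM (0.97, adjusted p = 0.000551). Insig2 was called with DOM (0.60). The SREBP genes were not called with any compound. Srebf1 differed from DMSO by -0.16 with MEHP, -0.31 with DINCH and 0.19 with DOM, and Srebf2 by 0.32, -0.02 and 0.32. None of the other genes of this list was called.

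Other enzymes of elongation, desaturation and carboxylation gave few calls. Of 7 other elongation genes tested, Hacd3 (0.61) and a feature of Hacd4 (0.83) were called higher with DOM and the same feature of Hacd4 with DINCH (0.95), none with MEHP. Both encode dehydratases of the elongation cycle. Of 3 other desaturases tested, Degs1, which desaturates ceramide precursors, was called lower with DINCH (-0.61), and Fads3, which lies beside Fads2, was called lower with DOM (-0.74), where Fads2 and Fads1 were at 0.33 and 0.35. Of 10 other genes of synthesis and its switches, only Acacb, the mitochondria-associated form of acetyl-CoA carboxylase, was called, higher with DOM (0.83).

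Downstream, of the acyl-CoA synthetases and enzymes of glycerolipid synthesis (14 listed), Lpin1, a phosphatidate phosphatase, was called higher with MEHP (1.16), DINCH (1.11) and DOM (1.26), and Dgat2, which makes triglyceride, was called lower with the same compounds (-0.68, -1.31 and -1.03). With DOM, Acsl1 was also called lower (-0.91), and Pnpla3, a known SREBP target, was called higher. Pnpla3 was well above background on all 4 DOM arrays and on 0 of the 4 DMSO arrays, which gives at least a 2.04-fold rise. It passed the filter only through the DOM arrays, where it was high, so its p-value lends this rise no support.

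The 20 enzymes of cholesterol synthesis, the other SREBP-driven pathway, were all tested for comparison. With MEHP 16 were called higher (median 0.71), led by Pmvk and Mvd (both 1.27) and Idi1 (0.99). With DOM 19 were called higher (median 1.03), led by Tm7sf2 (2.04), Hsd17b7 (1.92), Mvd (1.85) and Nsdhl (1.48), and with DINCH 6 (median 0.52), led by Mvd (1.04), Pmvk (1.04), Hmgcs1 (0.70) and Dhcr7 (0.65). With DINCH the median of the 10 members was 0.14. With DOS none was called but 20 of 20 lay above 0 (median 0.40, against 0.15 for the members), and with BDB the median was -0.0017. The differences between the lists were not tested.

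**Figure D4:**
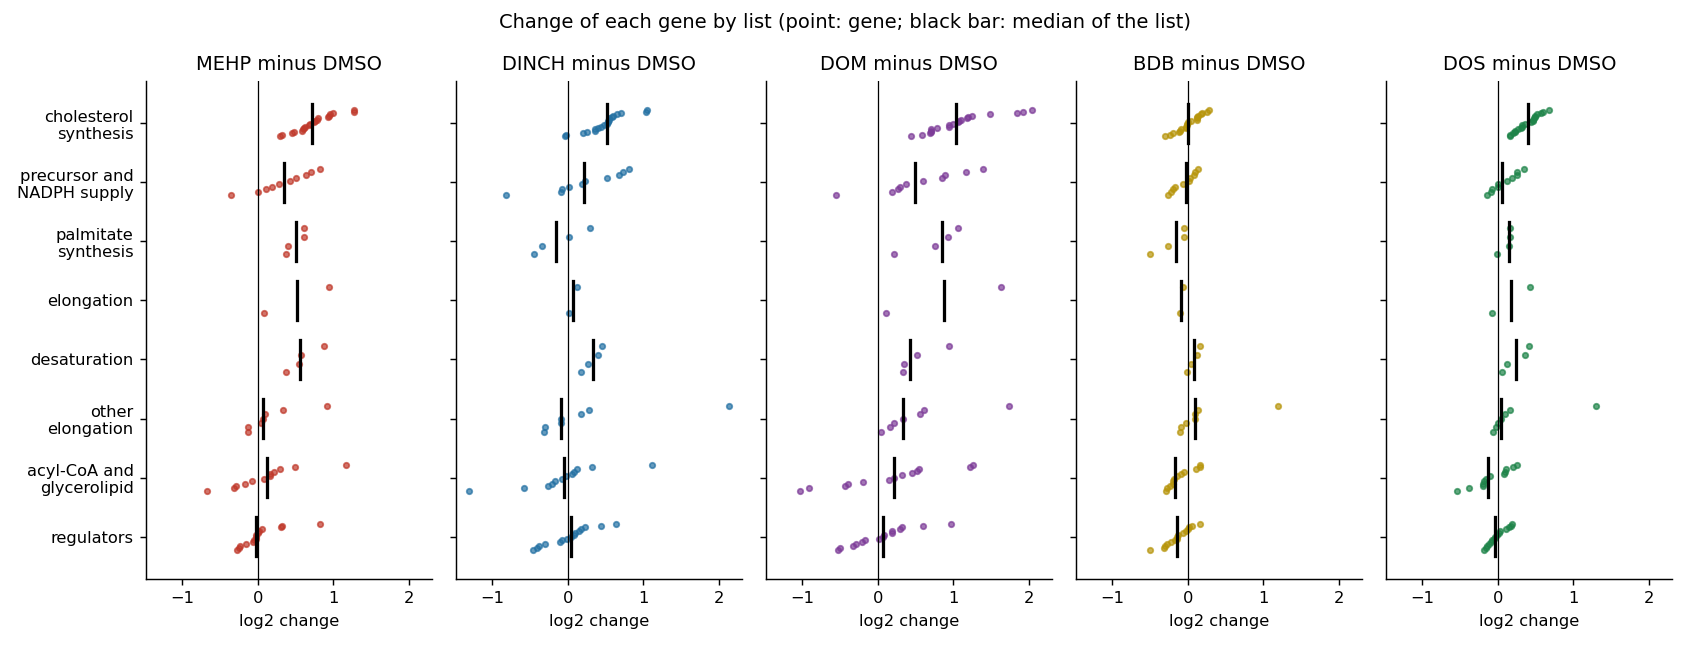
Log2 change against DMSO of each tested gene, by list and compound (points: brightest feature of a gene; black bars: median of the list). Members are split into palmitate synthesis (4 genes), elongation (2) and desaturation (4). With DINCH the median for palmitate synthesis is -0.16 and that for desaturation 0.33, and with DOM they are 0.85 and 0.43.

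Split by role, the members of palmitate synthesis had medians of 0.50 with MEHP, 0.85 with DOM and -0.16 with DINCH, and the desaturases 0.55, 0.43 and 0.33. With DINCH all 4 desaturases lay above 0, whereas Acaca and Fasn lay below it. Over the 23 arrays the members' levels had a median pairwise Pearson r of 0.62 (45 pairs, 0.03 to 0.93), and after the group means were taken out the median was 0.32 (-0.37 to 0.83). Arrays of a slide and the common scaling are shared by these values.

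The mean of the members' standardised levels was between 0.62 and 1.14 on the MEHP arrays and between 0.96 and 1.36 on the DOM arrays. On the other 15 arrays it was between -1.44 and 0.04. Among 11148 other genes well above background on all arrays, those whose levels were most like this mean over the 23 arrays were Bcl6b (Pearson r = 0.96, and 0.84 with the group means taken out), Acat3 (0.95 and 0.81), Nsdhl (0.94 and 0.80), Pcyt2 (0.94 and 0.51) and Aacs (0.93 and 0.77). Acat3 is a near copy of Acat2, so its signal may be shared. The points are arrays that share treatments, slides and scaling.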

How the data were processed

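Cy3-labelled RNA of every culture was hybridized to a separate 1-colour Agilent 8x60K mouse array. The intensity values the authors deposited were linear, background-subtracted and detrended by Agilent's extraction software, with no scaling between arrays. Their deposited log2 values, a second version of the same arrays, served as an alternative.

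Here each array's log2 processed intensity (floor of 1) was set relative to its 75th percentile. Spots with an outlier mark were dropped, and repeated spots of a probe averaged. Probes were named through RefSeq accessions. Tested were probes that in at least 1 of the compared groups were well above background, and not under the 20th percentile, on all arrays. Tests used limma 3.58.1 (R 4.3.3, data.table version 1.17.8) with Benjamini-Hochberg adjustment. A gene with several probes is represented by the brightest over the 23 arrays. Intervals are 95% and not adjusted. The steps were tested on simulated data. 

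The members and gene lists were chosen with earlier results of these data known. Named beside the members are the called genes of each list, up to 4 per comparison by size, Srebf1, Srebf2 and Insig1, the 5 genes most like the members, and markers from lists of 7 cell types. Some genes that these rules would name are left out here.

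Groups share replicate numbers. Whether these pair the arrays was checked on the deviations from group means, which correlated above 0.1 in each same-numbered pair for DINCH (0.17 to 0.50), BDB (0.25 to 0.43) and DOS (0.20 to 0.45), so these were taken as paired, from the values. For MEHP and DOM they were not. The main fits had no block for any compound, so for DINCH, BDB and DOS they did not use this pairing. The replicate block was run as an alternative, and with it Acaca was called lower with DINCH. Same-numbered arrays of a compound and DMSO mostly shared a slide. The pairs that did not were replicate 2 of MEHP (-0.14) and DOM (0.04) and replicate 3 of DINCH (0.17) and DOS (0.20). Whether the slide had a part in these correlations was not tested. The authors' methods describe biological replicates, and p-values measure the spread between them.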

Additional observations from a re-analysis of the deposited data

Results flagged for a closer look

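In 9 of the 75 groups of 4 arrays tested (15 features in 5 groups), the highest or lowest array stood apart from the other 3 by more than Dixon's limit, where chance alone flags about 1 in 20. Features of a gene and genes of an array are not independent. On DMSO replicate 1, Elovl6 was at 2.60, where the nearest other array was at 2.18, and Acaca was at 4.44, where the nearest was at 4.07. With MEHP, Acly was highest on replicate 1 (6.30, nearest 6.14). With DINCH, Elovl5 (3.38, nearest 3.69) was lowest and Fads2 (-0.071, nearest -0.20) highest on replicate 1, Elovl6 was lowest on replicate 3 (2.09, nearest 2.47) and Scd1 lowest on replicate 2 (3.26, nearest 3.53). Of the dimmer features of Acaca, 1 was highest on DINCH replicate 2 (-2.20, nearest -3.26) and 1 was lowest on DOM replicate 3 (-2.56, nearest -2.16). Elovl6, called with MEHP and DOM, rose by 0.94 and 1.63 with the high DMSO array included.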

How the results depend on the processing

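No called member changed direction under the alternatives run, and of the medians only that of BDB did (-0.05, and 0.016 without BDB replicate 2). Of 317 values of counts and medians, 302 stayed near the main value. This meant a count within 1.5-fold of the main count, or a median within 1 SD of the single array medians. By this rule 3, 5 or 6 members called higher with MEHP, in place of 4, were near. Of 180 values of called members, 159 were still called in the same direction, and the other 21 were MEHP calls lost. The number of members called higher with MEHP (4) was 0 without a filter on dim probes, where all probes share the adjustment and 3 genes in all were called, and 1 to 5 when single arrays were left out. It was 3 with the slide as a block and with normexp background correction, where Fasn was lost, and with detection on 1 array, where Scd1 was lost. With normexp background correction the MEHP median was 0.446, and with quantile normalization the DOM median was 0.797; the cause was not tested. With DINCH 1 member (Acaca) was called lower, in place of 0, with the slide as a block, with the replicate number as a block and with all 6 groups in a single fit, and 2 (Acaca and Fasn) without the fold threshold. Leaving out single arrays gave 0 to 1 members lower and 0 to 1 higher with DINCH. Without the fold threshold the 27 calls between compounds became 50. The replicate block changed no other count of members. For MEHP and DOM, which were not taken as paired, it left 4 and 5 members called. In these groups not every array correlated best with its own number. The members were well above background on all arrays, whereas Pnpla3 has only a lower limit. The background correction still affected the size of a change. Fasn with MEHP was at 0.61 in the main fit and at 0.43 with normexp background correction.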
